A study of Caenorhabditis elegans with 8 samples.

Results

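Transcript levels of 44 genes for the oocyte, the eggshell and germline RNA-binding proteins were compared between Caenorhabditis elegans worms of a strain labelled atf-6 and worms of the wild-type laboratory strain N2. The genes were taken by symbol from a named list, all 44 had a row among the 46093 genes of the count table, and all 44 were among the 12375 genes with enough counts to be tested. Of these, 12 encode proteins of the eggshell or the egg surface, 29 encode RNA-binding proteins or proteins of P granules, and 3 (mbk-2, egg-6 and glp-1) belong to neither class. Poly(A) RNA of whole worms was sequenced in 4 libraries per strain, each from about 1000 worms of an independent biological replicate. Worms of both strains were day 1 adults kept at 20 °C, which had developed for 72 h on OP50-1 bacteria from bleach-synchronized first-stage larvae. The labels name no allele for atf-6, the gene for a membrane-bound transcription factor of the endoplasmic reticulum stress response, so what the strain lacks cannot be stated here.

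In the adult hermaphrodite, germ cells made by mitosis at the distal end of the gonad pass through meiosis and grow into oocytes, which are ovulated and fertilized in turn. Growing oocytes are loaded with mRNAs that are held silent by RNA-binding proteins and used later, in maturation and in the early embryo. Many of these proteins gather in P granules, RNA and protein condensates that mark the germline. The oocyte also prepares its own shell. Some components are secreted before fertilization onto the egg surface. Others leave cortical granules during the meiotic divisions to build a layer of chondroitin proteoglycan.

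Depth was 12664222 to 21698298 estimated counts per library. Over all tested genes, edgeR's quasi-likelihood test with Benjamini-Hochberg adjustment called 0.816% at an adjusted p under 0.05, 88 genes higher in atf-6 (0.711%) and 13 lower (0.105%). The atf-6 transcript itself averaged 14.99 ± 0.804 CPM (counts relative to the normalized library total) in atf-6 worms and 12.3 ± 1.06 CPM in wild type (SD, n = 4 each), so its level does not check the strain labels. Within strains, 48.3% of the variance lay along 1 axis, with atf-6 replicate 1 and wild-type replicate 3 at one end and atf-6 replicate 3 and wild-type replicate 1 at the other. Of 10 tested markers of sperm, 5 were higher in atf-6 by edgeR, and the list of 12 summed to 65.3 to 98.5 CPM in atf-6 libraries and 29.6 to 45.1 CPM in wild-type libraries, with spe-9 and spe-38 at 0 in some. The part of sperm in the values of the 44 genes was not tested. No marker of intestine, body wall muscle, hypodermis, neurons, gonadal sheath and spermatheca or early zygotic embryo was called by edgeR or DESeq2 (1 muscle marker, myo-3, had an unadjusted p under 0.05).

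None of the 44 genes passed the test between the strains. Of the 12 eggshell and egg surface genes, 0 were called higher and 0 lower in atf-6 by edgeR, and of the 29 RNA-binding and P granule genes 0 were called higher and 0 lower, as was the case for the 3 other genes. An unadjusted p under 0.05 was found for 2 of the 44, egg-2 and deps-1, both lower in atf-6, against 1.61% of all tested genes in that direction. DESeq2 likewise called 0 of the 44, where it called 1.24% of the genes it tested at an adjusted p under 0.05. It gave 5 of the 44 an unadjusted p under 0.05, and the share of all genes at that unadjusted threshold was not counted for DESeq2. In whole worms fewer oocytes and less RNA per oocyte cannot be told apart, and levels are relative to all other RNA in the library.

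The estimated differences were small and nearly all of 1 sign. The log2 fold change was below 0 for 43 of the 44 genes and above 0 for cpg-1 alone, and its median was -0.08 over all 44 against 0.00 over all tested genes, of which 49.3% were below 0. Abundant genes as a whole leaned the same way. The 2274 tested genes with a mean of at least 87.4 CPM, the level of the lowest of the 44, had a median of -0.05. Of them, 80.6% were below 0. This background sets only a floor on level, is not matched to the levels of the 44, and was chosen after the values were seen. The 95% interval of the fold change lay within 1.5-fold for every one of the 44 genes, between 0.779-fold and 1.18-fold at the outermost. With atf-6 replicate 3 and wild-type replicate 3 both left out, 31 of the 44 were below 0.

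**Figure D1:**
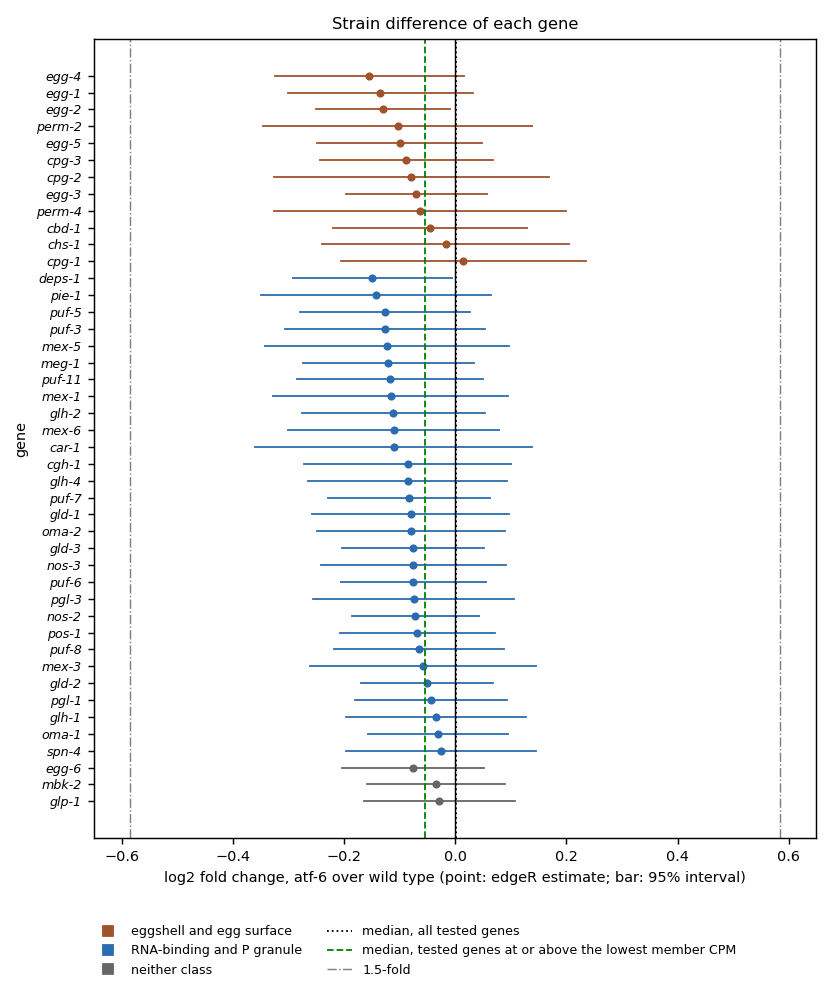
Log2 fold change of each gene, atf-6 over wild type, as estimated by edgeR from 4 libraries per strain (points) with its 95% interval (bars), coloured by class, with vertical lines at the median of all tested genes, at the median of tested genes of at least the same level, and at 1.5-fold in either direction. All intervals lie within the 1.5-fold lines, and 43 of the 44 points lie left of 0.

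Levels between genes were compared in TPM, the share of a transcript in its library after correction for transcript length. Over the 8 libraries the highest was perm-2 at a mean of 905 TPM, followed by cpg-2 at 760 TPM, the RNA helicase gene cgh-1 at 694 TPM, cpg-1 and perm-4 at 596 TPM each and car-1 at 551 TPM. The order of cpg-1 and perm-4 is not resolved, since the 2 means differ by less than their spread between libraries. The lowest were the Notch receptor gene glp-1 at 25.8 TPM and the helicase gene glh-4 at 24.0 TPM. The median was 228 TPM for the 12 eggshell and egg surface genes and 107 TPM for the 29 RNA-binding and P granule genes, with ranges of 43.5 to 905 TPM and 24.0 to 694 TPM that overlap widely. Together the 44 genes made up 0.762% to 0.938% of all TPM in the 4 atf-6 libraries and 0.860% to 0.935% in the 4 wild-type libraries. Behind each value stood at least 1085 counts, for pie-1 in its lowest library, and up to 63881.

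The outermost, vitelline layer of the eggshell holds PERM-2, PERM-4 and the chitin-binding protein CBD-1. The gene perm-2 (WBGene00016636, chromosome IV, 1126790 to 1128865 of WBcel235, plus strand) had 969, 928, 770.1 and 821 CPM in atf-6 replicates 1 to 4, against 826, 893, 1116 and 913 CPM in wild-type replicates 1 to 4. Wild-type replicate 3 stood highest and atf-6 replicate 3 lowest, and the groups overlapped (log2 fold change -0.10, SE 0.110, edgeR adjusted p = 0.924). Its neighbour perm-4 (chromosome IV, 1121494 to 1125107, minus strand) starts 1682 bases away, on the other strand and pointing away from perm-2. It had 1311, 1194, 942 and 1058 CPM in atf-6, against 1047, 1139, 1376 and 1144 CPM in wild type, with the same libraries at the top and the bottom. cbd-1 varied less, at 2340.2 ± 123 CPM in atf-6 and 2414 ± 63.0 CPM in wild type (SD, n = 4 each; log2 fold change -0.05, SE 0.0790).

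Next inward come chitin, made by the chitin synthase CHS-1, and the chondroitin proteoglycans CPG-1 and CPG-2, which also bind chitin. The gene cpg-2 (WBGene00015102, chromosome III, 7102092 to 7103990, minus strand) had 2841, 2635, 2224 and 2385 CPM in atf-6, against 2372, 2648, 3087 and 2545 CPM in wild type. Its highest and lowest libraries were those of perm-2, and the groups overlapped (log2 fold change -0.08, SE 0.112, edgeR adjusted p = 0.933). cpg-1 (WBGene00000465, chromosome III, 4489359 to 4491392, plus strand) had 2206, 2104, 1856 and 1961 CPM in atf-6, against 1765, 1916, 2231 and 2136 CPM in wild type. At 0.01 (SE 0.0996, edgeR adjusted p = 0.989) its log2 fold change was the only one above 0, and it took the other sign under DESeq2 and with plain read sums. The third proteoglycan gene of the set, cpg-3, had 599 ± 40.2 CPM in atf-6 and 637 ± 22.9 CPM in wild type (SD, n = 4 each). chs-1 (WBGene00000496, chromosome I, 7554855 to 7559916, plus strand) ran opposite to the proteoglycan genes across libraries. It had 385, 426, 465 and 469.9 CPM in atf-6, against 502, 449.8, 368 and 447 CPM in wild type, so that its lowest libraries were atf-6 replicate 1 and wild-type replicate 3. The groups overlapped (log2 fold change -0.02, SE 0.100, edgeR adjusted p = 0.986). Its exons overlap those of another gene on the same strand, so part of its reads could have been assigned to that gene.

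The EGG proteins act at the oocyte surface. EGG-1 and EGG-2 are transmembrane proteins with LDL-receptor repeats that sperm entry requires. The gene egg-2 (WBGene00019811, chromosome III, 7058527 to 7060583, minus strand) had 271, 259, 247 and 256 CPM in atf-6, against 275, 287, 278 and 291 CPM in wild type. It was the 1 gene of the 44 whose groups did not overlap, all 4 atf-6 libraries lying below all 4 wild-type libraries, which held in the lower direction for 2.02% of all tested genes and in either direction for 5.79%. At a log2 fold change of -0.13 (SE 0.0547, unadjusted p = 0.0374) it missed the threshold of edgeR's test over all genes (adjusted p = 0.644, and 0.322 to 1.000 in the alternative fits). egg-1 (WBGene00015083, chromosome III, 5728180 to 5730159, plus strand) had 687, 662, 583 and 618 CPM in atf-6, against 667, 707, 748 and 679.9 CPM in wild type. Only atf-6 replicate 1 reached into the wild-type range, and the log2 fold change was -0.14 (SE 0.0752, edgeR adjusted p = 0.848).

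EGG-3, EGG-4 and EGG-5 resemble protein tyrosine phosphatases and hold the kinase MBK-2 at the oocyte cortex before it is released in meiosis. egg-4 (chromosome I, 3932210 to 3934813) had 209.6, 216, 174 and 196 CPM in atf-6, against 215, 219, 240.4 and 212 CPM in wild type. Its close relative egg-5 (chromosome I, 4168984 to 4171589) had 291, 294, 248 and 278 CPM in atf-6, against 289, 297, 312 and 292 CPM in wild type. For both genes atf-6 replicate 3 was lowest and wild-type replicate 3 highest, and 1 or more atf-6 libraries lay within the wild-type range. The log2 fold change was -0.15 (SE 0.0768) for egg-4 and -0.10 (SE 0.0669) for egg-5, with edgeR adjusted p of 0.785 and 0.878. egg-3, whose protein and CHS-1 depend on each other for their place at the cortex, was level in atf-6 at 201 ± 4.58 CPM and had 211 ± 12.1 CPM in wild type (SD, n = 4 each).

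**Figure D2:**
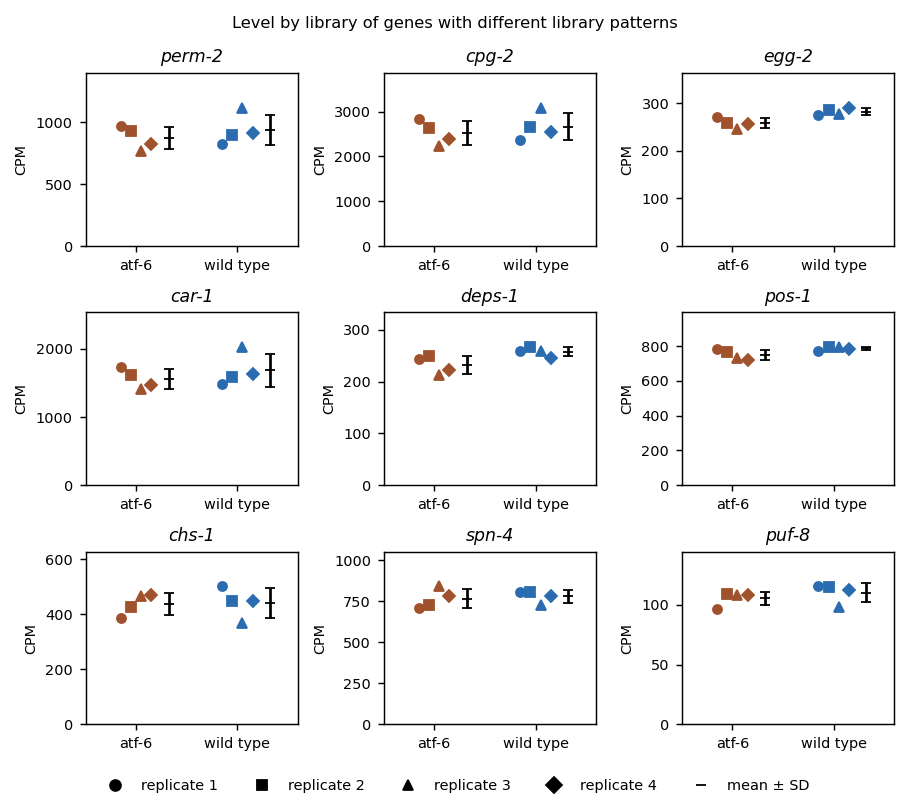
CPM by library of perm-2, cpg-2, egg-2, car-1, deps-1, pos-1, chs-1, spn-4 and puf-8, with symbols for the replicate number and the mean ± SD of each strain (n = 4), each axis starting at 0. Only for egg-2 do the 2 strains not overlap. Wild-type replicate 3 is the highest library for perm-2, cpg-2 and car-1, the lowest of all for chs-1 and the lowest within wild type for spn-4 and puf-8.

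Among the RNA-binding and P granule genes, the smallest p belonged to deps-1 (WBGene00022034, chromosome I, 506473 to 509056, plus strand), whose protein is needed to assemble P granules. It had 244, 249, 213 and 223 CPM in atf-6, against 259, 267, 258 and 246 CPM in wild type. The groups met between atf-6 replicate 2 and wild-type replicate 4, and with a log2 fold change of -0.15 (SE 0.0649, unadjusted p = 0.0427) the gene missed the threshold of edgeR's test (adjusted p = 0.680, and 0.525 to 1.000 in the alternative fits). meg-1 (WBGene00010492, chromosome X, 13927036 to 13929634, minus strand) encodes a disordered protein of embryonic P granules and is the 1 gene of the 44 on chromosome X. It had 172, 182, 163 and 163 CPM in atf-6, against 171, 186, 204 and 177 CPM in wild type (log2 fold change -0.12, SE 0.0694, edgeR adjusted p = 0.855). Its groups overlapped.

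The P granule core is made by PGL-1 and PGL-3, which form the scaffold, and by the Vasa-type helicases GLH-1, GLH-2 and GLH-4. pgl-1 (chromosome IV, 6974441 to 6977318, minus strand) had 500.1, 518, 472 and 488 CPM in atf-6, against 503, 511, 534 and 491 CPM in wild type. pgl-3 (chromosome V, 4755979 to 4758587) had 332, 319, 263 and 296 CPM in atf-6, against 307, 300.2, 348 and 319 CPM in wild type. Both overlapped between the strains, with atf-6 replicate 3 lowest, and the log2 fold change was -0.04 for pgl-1 (SE 0.0616) and -0.08 for pgl-3 (SE 0.0822). glh-1 (chromosome I, 6854478 to 6857536) had 545, 551, 495 and 514 CPM in atf-6, against 510.4, 527, 598 and 521 CPM in wild type. For glh-2 (chromosome I, 6513928 to 6517507) the values were 296, 284, 253 and 264 CPM in atf-6, against 279, 286, 330.0 and 289.5 CPM in wild type. In both, wild-type replicate 3 was the highest of the 8 libraries, and the log2 fold change was -0.04 for glh-1 (SE 0.0732) and -0.11 for glh-2 (SE 0.0747). glh-4 had 185 ± 17.3 CPM in atf-6 and 196 ± 15.5 CPM in wild type (SD, n = 4 each). The edgeR adjusted p of these 5 genes ran from 0.879 for glh-2 to 0.953 for glh-1.

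CGH-1, a DDX6-type helicase, and CAR-1, an Lsm-domain protein, act together in storing and silencing mRNAs in oocytes. cgh-1 (WBGene00000479, chromosome III, 7495320 to 7497832, minus strand) had 2829, 2739, 2689.7 and 2774 CPM in atf-6, against 2693, 2876, 3196 and 2943 CPM in wild type. Its spread in atf-6 was the narrowest of all 44 genes there, a coefficient of variation of 2.12%, and its groups overlapped (log2 fold change -0.09, SE 0.0844, edgeR adjusted p = 0.920). car-1 (WBGene00012484, chromosome I, 12904470 to 12906040, plus strand) had 1737, 1625, 1409.8 and 1472 CPM in atf-6, against 1487, 1595, 2029 and 1630.3 CPM in wild type. Wild-type replicate 3 stood above every other library, and the spread in wild type was the widest of the 44, 14.1% (log2 fold change -0.11, SE 0.113, edgeR adjusted p = 0.923).

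OMA-1 and OMA-2 are zinc finger proteins that oocyte maturation requires and that repress stored mRNAs in late oocytes. oma-1 (chromosome IV, 8888976 to 8890999, plus strand) had 373, 385, 397 and 386 CPM in atf-6, against 394, 404, 375 and 402 CPM in wild type. oma-2 (chromosome V, 8029439 to 8031214) had 638, 614, 539.6 and 562 CPM in atf-6, against 585, 624, 667 and 609 CPM in wild type. These partners took opposite orders across libraries: atf-6 replicate 1 and wild-type replicate 3 were the lowest of their strains for oma-1 and the highest for oma-2. The strains overlapped for both (log2 fold change -0.03, SE 0.0569, for oma-1 and -0.08, SE 0.0766, for oma-2).

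The CCCH zinc finger proteins MEX-5 and MEX-6 set up the polarity of the embryo, and MEX-1, POS-1 and PIE-1 act with the KH-domain protein MEX-3 and the RRM protein SPN-4 in its early cell fates. mex-5 (chromosome IV, 13353723 to 13356104) had 947, 884, 798 and 789 CPM in atf-6, against 823, 913, 1084 and 903 CPM in wild type. mex-6 (chromosome II, 9524174 to 9526359) had 579, 557, 497 and 509 CPM in atf-6, against 523, 567, 657 and 566 CPM in wild type. In both, atf-6 replicate 1 and wild-type replicate 3 were the highest of their strains, the strains overlapped, and the log2 fold change was -0.12 for mex-5 (SE 0.0995) and -0.11 for mex-6 (SE 0.0859). pos-1 (WBGene00004078, chromosome V, 8414086 to 8415254, plus strand) was the most even in wild type, with a coefficient of variation of 1.26%. It had 783, 767, 734 and 718 CPM in atf-6, against 775, 795, 795 and 783 CPM in wild type (log2 fold change -0.07, SE 0.0632, edgeR adjusted p = 0.912). Here atf-6 replicates 2, 3 and 4 lay below every wild-type library and atf-6 replicate 1 lay within their range. spn-4 had 766 ± 59.0 CPM in atf-6 and 780.2 ± 38.5 CPM in wild type, and mex-3 had 446 ± 36.8 CPM in atf-6 and 464 ± 53.3 CPM in wild type (SD, n = 4 each). mex-1 had 355 ± 39.0 CPM in atf-6 and 385 ± 38.5 CPM in wild type. pie-1, whose protein also blocks transcription in germline blastomeres, had 83.2 ± 9.43 CPM in atf-6 and 91.7 ± 8.44 CPM in wild type. The strains overlapped for these 4 genes. Their log2 fold changes ran from -0.14 for pie-1 to -0.03 for spn-4, each less than 2 times its SE.

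PUF proteins bind the 3' untranslated regions of mRNAs and repress them. puf-5 (WBGene00004241, chromosome II, 8575541 to 8577787, plus strand) had 886, 927, 842 and 872 CPM in atf-6, against 959, 1020.1, 959 and 916 CPM in wild type. Only atf-6 replicate 2 exceeded the lowest wild-type library, and the log2 fold change was -0.13 (SE 0.0692, edgeR adjusted p = 0.841). The closely related pair puf-11 and puf-3 came next. puf-11 (chromosome IV, 6421585 to 6423497) had 456, 444, 374 and 423 CPM in atf-6, against 442, 451, 491 and 455 CPM in wild type. puf-3 (chromosome IV, 13510307 to 13512162) had 556, 524, 456 and 502 CPM in atf-6, against 509.8, 560.3, 607 and 548 CPM in wild type. In both genes atf-6 replicates 1 and 2 lay within the wild-type range and atf-6 replicate 3 was lowest, with a log2 fold change of -0.12 for puf-11 (SE 0.0756) and -0.13 for puf-3 (SE 0.0812) and an edgeR adjusted p of 0.865 for each. puf-6 (chromosome II, 13039792 to 13043445) had 157, 153, 141 and 143 CPM in atf-6, against 148, 157, 164 and 156 CPM in wild type. puf-7 (chromosome IV, 5486713 to 5490322) had 241, 228, 214 and 226 CPM in atf-6, against 225, 232, 264 and 241 CPM in wild type. This pair overlapped between the strains, with a log2 fold change of -0.08 for each (SE 0.0587 and 0.0660). puf-8, which acts in germline stem cells and meiosis, had 105 ± 5.70 CPM in atf-6 and 110.2 ± 8.11 CPM in wild type (SD, n = 4 each).

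GLD-1, GLD-2 and GLD-3 control entry into meiosis: GLD-1 is a translational repressor, GLD-2 a cytoplasmic poly(A) polymerase, and GLD-3 its KH-domain partner. gld-1 (chromosome I, 7695681 to 7698222) averaged 1072 ± 50.7 CPM in atf-6 and 1134 ± 88.5 CPM in wild type (SD, n = 4 each). gld-2 averaged 259 ± 8.99 CPM in atf-6 and 269 ± 7.46 CPM in wild type, and gld-3 averaged 339 ± 15.1 CPM in atf-6 and 358 ± 8.28 CPM in wild type. The Nanos-type genes nos-2 and nos-3 averaged 108 ± 2.56 and 221 ± 17.1 CPM in atf-6 and 114 ± 3.60 and 233 ± 17.97 CPM in wild type. None of these 5 genes separated the strains, and their log2 fold changes ran from -0.08 to -0.05 (edgeR adjusted p 0.895 to 0.924).

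The 3 genes outside the classes behaved likewise. mbk-2 (chromosome IV, 13009158 to 13035961), which encodes the DYRK-type kinase that the EGG proteins hold, had 396, 396, 377 and 370.0 CPM in atf-6, against 388, 391, 405 and 394 CPM in wild type. glp-1 (chromosome III, 9092241 to 9099698), the Notch receptor that keeps germline stem cells dividing, had 199, 215, 205 and 211 CPM in atf-6, against 227, 209, 195 and 216 CPM in wild type. egg-6 (chromosome I, 8676666 to 8681325), which encodes a leucine-rich repeat protein of epithelial surfaces, had 442, 439.7, 420.1 and 448 CPM in atf-6, against 463, 470.5, 443 and 469 CPM in wild type. The strains overlapped for all 3, with egg-6 closest to separating (log2 fold change -0.08, SE 0.0575, edgeR adjusted p = 0.902).

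Set against each other, the eggshell class and the RNA-binding class had the same median difference between the strains. The median log2 fold change was -0.08 for the 12 eggshell and egg surface genes, with a range of -0.15 to 0.01, and -0.08 for the 29 RNA-binding and P granule genes, with a range of -0.15 to -0.03. The outermost 95% intervals in the eggshell class reached 0.787-fold and 1.18-fold, and in the RNA-binding class 0.779-fold and 1.11-fold. Summed TPM of the eggshell class was 3507, 3967, 3910.2 and 4176 in atf-6 replicates 1 to 4, against 4060.1, 3966, 3924 and 4183 in wild type. That of the RNA-binding class was 3957, 4576, 4920.2 and 4996 in atf-6, against 5011, 4814, 4514 and 4968 in wild type. The ratio of the eggshell sum to the RNA-binding sum was 0.886, 0.867, 0.795 and 0.836 in atf-6, against 0.810, 0.824, 0.869 and 0.842 in wild type. Its means of 0.846 ± 0.0400 in atf-6 and 0.836 ± 0.0256 in wild type (SD, n = 4 each) were closer together than the libraries of either strain. The ratio was highest in atf-6 replicate 1 and wild-type replicate 3. These libraries stood at one end of the axis that held 48.3% of the within-strain variance over tested genes. TPM are shares of a library and so depend on its other transcripts, whereas the ratio is taken within a library.

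**Figure D3:**
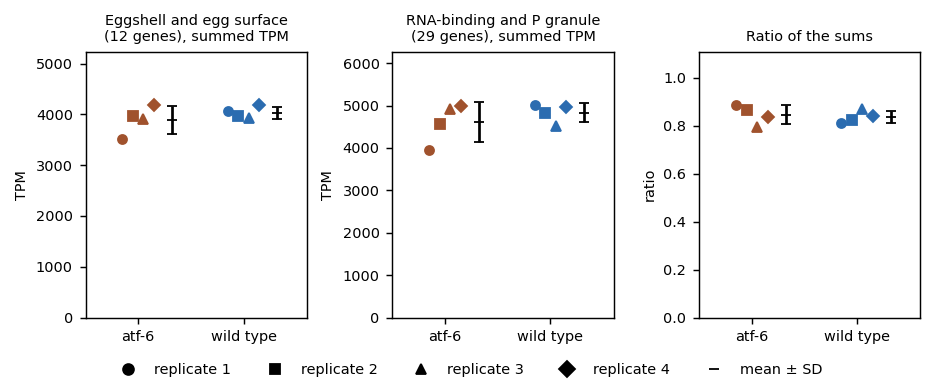
Summed TPM of the 12 eggshell and egg surface genes (left) and of the 29 RNA-binding and P granule genes (middle), and the ratio of the sums (right), by library, with symbols for the replicate number and the mean ± SD of each strain (n = 4). The ratios overlap between the strains, at means of 0.846 in atf-6 and 0.836 in wild type.

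Many of the 44 genes varied between the libraries of a strain in the same way, as did many other genes at or above their lowest level. Of the 44, 24 were highest in both atf-6 replicate 1 and wild-type replicate 3 within their strain, 6 of 12 in the eggshell class and 18 of 29 in the RNA-binding class. The same held for 21.7% of all tested genes and for 45.6% of the tested genes of at least the same level. The 6 eggshell genes were perm-2, perm-4, cpg-1, cpg-2, cpg-3 and egg-1. A set of 7 genes took the opposite place and was lowest in both libraries: chs-1, egg-3, oma-1, gld-3, spn-4, puf-8 and glp-1. That pattern was found for 21.7% of all tested genes and for 22.5% of those of at least the same level.

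The largest of these deviations exceeded every strain difference. Against the mean log2 CPM of the other 3 wild-type libraries, wild-type replicate 3 stood between -0.34 (chs-1) and 0.37 (car-1). Against the other 3 atf-6 libraries, atf-6 replicate 1 stood between -0.23 (chs-1) and 0.31 (perm-4). The sign was the same in both libraries for 40 of the 44 genes, 11 of 12 in the eggshell class and 27 of 29 in the RNA-binding class. The share over all tested genes was not counted, so this does not set the 44 genes apart. Some genes of close function lay on opposite sides: oma-1 and oma-2, and chs-1 and the proteoglycan genes of the layer beneath. So did gld-3 and its partner gld-2, by little (-0.06 and 0.05 in wild-type replicate 3). On the same side lay chs-1 and egg-3. Most of the pairs of close relatives also lay on 1 side, above the other libraries: egg-4 and egg-5, cpg-1 and cpg-2, and mex-5 and mex-6. The same was true of puf-3 and puf-11, puf-6 and puf-7, pgl-1 and pgl-3, and glh-1 and glh-2. Across genes, which share these libraries, Spearman's rho of the abundance-weighted transcript length with the deviation of wild-type replicate 3 was -0.65 in the eggshell class (n = 12 genes) and 0.13 in the RNA-binding class (n = 29 genes), given as a description. The rho of mean TPM with the same deviation was 0.71 in the eggshell class and 0.09 in the RNA-binding class. Length and level were not separated. Summed markers of intestine were 48320.3, 46701.0, 38404 and 43779 CPM in atf-6 and 39623, 44049.9, 51674 and 46119.8 CPM in wild type, also highest in atf-6 replicate 1 and wild-type replicate 3. The sums of hypodermis, body wall muscle, neuron, and gonadal sheath and spermatheca markers were highest in the same libraries, and those of sperm markers in atf-6 replicate 1 and wild-type replicate 2. Abundant genes set several sums: in atf-6 replicate 1, vit-2 gave 29550 of 48320.3 CPM, fln-1 560 of 591 CPM and snb-1 128 of 209 CPM. Most single markers of intestine, neurons, and sheath and spermatheca did not follow their sum. Highest in both libraries within their strain were only act-5 and vit-2 of intestine, snb-1 of neurons and fln-1 of sheath and spermatheca. In muscle unc-54 and unc-15 were, and myo-3 and unc-22 were not. In hypodermis col-19, col-140 and rol-6 were, and dpy-7 was not. The intestine marker vha-6 was highest in atf-6 replicate 4 and wild-type replicate 1, and the sheath marker lim-7 in atf-6 replicate 3 and wild-type replicate 1. The neuron marker unc-104 was lowest in atf-6 replicate 1 and wild-type replicate 3. Early zygotic markers were highest in atf-6 replicate 3 and wild-type replicate 1. Their part in the pattern of the 44 genes was not tested. Without atf-6 replicate 1 and wild-type replicate 3, a choice made after the data were seen, again 0 of the 44 were called by edgeR and 42 were below 0.

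**Figure D4:**
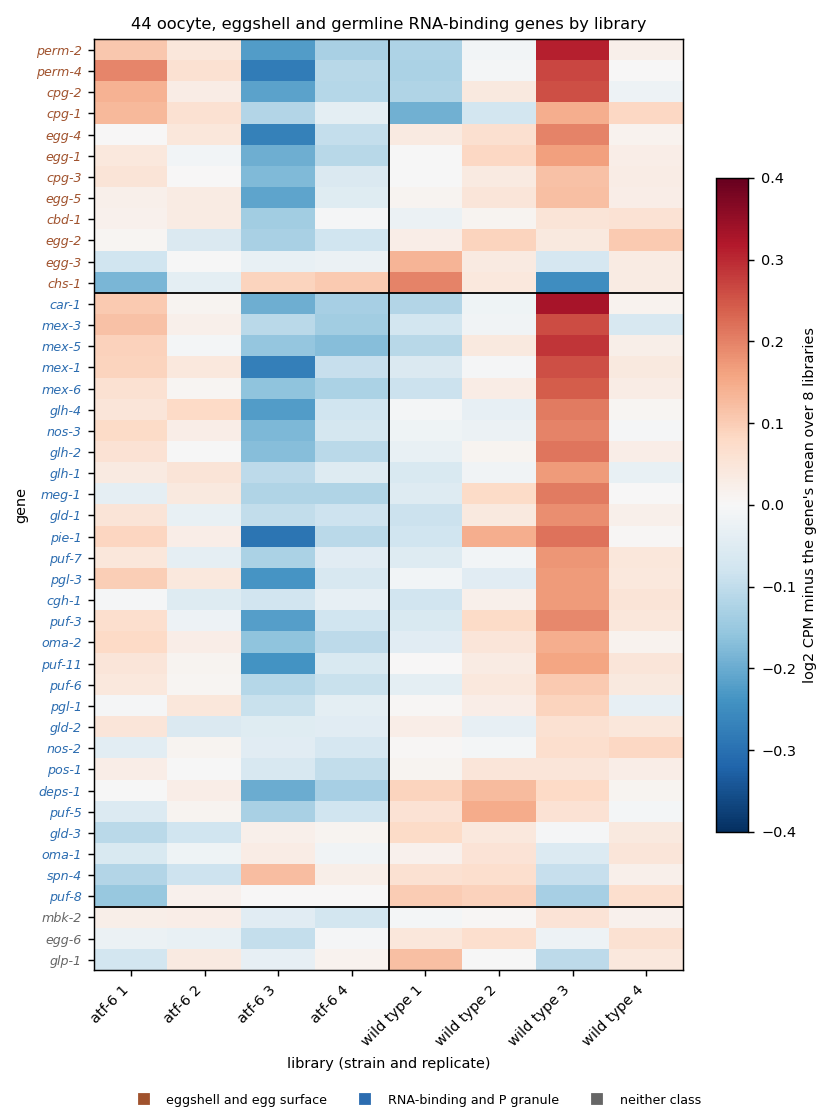
Log2 CPM of each of the 44 genes in each library minus the mean of that gene over the 8 libraries (colour), with atf-6 replicates 1 to 4 left of wild-type replicates 1 to 4 and the genes grouped by class. Wild-type replicate 3 is high for most genes and low for chs-1, and atf-6 replicate 3 is low for most.

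Several of the genes come as pairs of close relatives, and the share of each was compared between strains as a ratio of TPM. Over the 9 pairs compared, 0 passed an exact two-sided permutation test at an adjusted p of 0.05, but the smallest p that 4 against 4 libraries allow, 0.0286, becomes 0.257 for 1 pair adjusted over the 9, and 6 pairs would have to reach it for any to pass. The ratios are therefore given as a description. The egg surface gene egg-1 was 2.31 ± 0.0854 times as abundant as egg-2 in atf-6 and 2.32 ± 0.143 times in wild type (SD, n = 4 each). The ratio of mex-5 to mex-6 was 1.51 ± 0.0345 in atf-6 and 1.53 ± 0.0307 in wild type, and that of puf-3 to puf-11 was 1.20 ± 0.0207 in atf-6 and 1.21 ± 0.0395 in wild type. The ratio of puf-7 to puf-6 was 1.52 ± 0.0378 in atf-6 and 1.52 ± 0.0549 in wild type. The mean log2 ratio of atf-6 minus wild type was closest to 0 for puf-7 to puf-6 (-0.00599) and farthest, among these 4 pairs, for mex-5 to mex-6 (-0.0109).

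In the other 5 pairs the mean log2 ratio of atf-6 minus wild type ran from -0.10 for cpg-2 to cpg-1 up to 0.08 for glh-1 to glh-2. oma-2 over oma-1 was 1.89, 1.77, 1.51 and 1.61 in atf-6, against 1.64, 1.71, 1.97 and 1.68 in wild type, following the opposite library patterns of the 2 genes. The closest to a strain difference were egg-5 over egg-4, at 1.40 ± 0.0304 in atf-6 and 1.35 ± 0.0351 in wild type, and glh-1 over glh-2, at 2.34 ± 0.0666 in atf-6 and 2.22 ± 0.0226 in wild type (SD, n = 4 each). Both gave an exact permutation p of 0.0571, or 0.257 adjusted over the 9 pairs. The ratio cpg-2 over cpg-1 was 1.24 ± 0.0399 in atf-6 and 1.32 ± 0.0910 in wild type (exact permutation p = 0.171, adjusted p = 0.514), and pgl-1 over pgl-3 was 1.58 ± 0.113 in atf-6 and 1.54 ± 0.0797 in wild type (exact permutation p = 0.629, adjusted p = 0.943). Where relatives are near-identical in sequence, the quantifier had to divide their shared reads, and the ratio depends on that division.

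For 17 of the 44 genes more than 1 annotated transcript was present above 1 TPM, 42 transcripts in all. Their shares overlapped between the strains but for 1, a minor form of mex-1 listed at or near 0 in most libraries. The largest range of a share over the 8 libraries was 26.7 percentage points, for the form W03C9.7a.3 of mex-1. cpg-1 was the most abundant of the 17 genes. Its short form C07G2.1b of 617 bases had 42.1, 69.0, 126 and 101 TPM in atf-6 replicates 1 to 4, against 83.9, 66.7, 29.7 and 90.3 TPM in wild type. Its long form C07G2.1a of 1893 bases had 494, 539, 494 and 548 TPM in atf-6, against 487, 498, 536 and 565 TPM in wild type. The short form therefore made up 7.86%, 11.4%, 20.3% and 15.6% of cpg-1 in atf-6, against 14.7%, 11.8%, 5.26% and 13.8% in wild type, and was lowest in atf-6 replicate 1 and wild-type replicate 3.

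**Figure D5:**
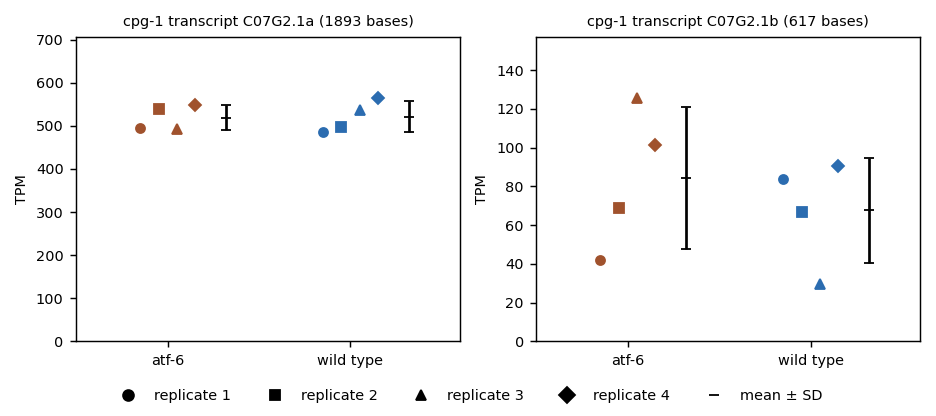
TPM of the long (left, 1893 bases) and the short (right, 617 bases) transcript of cpg-1 by library, with symbols for the replicate number and the mean ± SD of each strain (n = 4). The strains overlap for both forms, and the short form ranges from 29.7 to 126 TPM.

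nos-3 gave a further example, its form Y53C12B.3a making up 36.5%, 34.9%, 25.7% and 33.5% of the gene in atf-6, against 34.7%, 33.1%, 48.4% and 33.8% in wild type. Wild-type replicate 3 was high and atf-6 replicate 3 low, and the strains overlapped. In contrast, gld-3 kept nearly constant shares, its form T07F8.3b making up 64.1% ± 1.3 in atf-6 and 62.2% ± 1.68 in wild type (SD, n = 4 each). By position, the 44 genes are spread over all chromosomes, with 13 on chromosome I, 9 on II, 7 on III, 10 on IV, 4 on V and 1 on X, and perm-2 and perm-4 are the only close neighbours. Exons of 14 of the genes overlap those of a gene on the opposite strand. The library kit is stranded, but the sources do not say if the quantifier used the strand, so reads of such partners may not be told apart.

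Other genes of the same processes, 67 tested genes in 5 lists, gave 0 calls in either direction by edgeR. An unadjusted edgeR p under 0.05 was found for 3, all lower in atf-6, against 1.61% of all tested genes in that direction. DESeq2 gave 1 call, where it called 1.24% of the genes it tested. Of 13 tested genes for other chondroitin proteoglycans and for chondroitin synthesis (cpg-5 and cpg-6 had no row), the median log2 fold change was -0.06, and the smallest p belonged to cpg-9 (0.15, SE 0.0716) and cpg-4 (-0.15, SE 0.0700), which differed in sign. Of 9 genes for eggshell precursors and the permeability barrier, the median was 0.00, the smallest p belonging to the cytochrome P450 gene cyp-31A3 (-0.14, SE 0.0688) and the fatty acid synthase gene fasn-1 (0.10, SE 0.0606). Of 17 other RNA regulators of the germline the median was -0.08, with gla-3 at -0.12 (SE 0.0568) and nos-1 at -0.21 (SE 0.117).

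Of 13 other germ granule genes the median was -0.06, and mip-1 and mip-2, which encode LOTUS-domain proteins of P granules, had the smallest p. mip-2 had 154, 163, 148 and 157 CPM in atf-6, against 175, 168, 168 and 177 CPM in wild type (log2 fold change -0.15, SE 0.0536, edgeR adjusted p = 0.481). mip-1 had 99.0, 105, 102 and 107 CPM in atf-6, against 115, 114, 113 and 112 CPM in wild type (log2 fold change -0.13, SE 0.0512, edgeR adjusted p = 0.540). In both genes all 4 atf-6 libraries lay below all 4 wild-type libraries. The same held for csr-1 of this list, for gla-3 of the RNA regulators and, over all tested genes, for 2.02%.

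Of 15 genes for oocyte maturation and the cell cycle the median was -0.03, and wee-1.3, which encodes the inhibitory kinase that holds oocytes in arrest, had the smallest p. It had 177.1, 177.1, 182 and 177.2 CPM in atf-6, against 202, 201, 199 and 190.0 CPM in wild type. All 4 atf-6 libraries lay below all 4 wild-type libraries, which held in that direction for 2.02% of all tested genes. At -0.15 (SE 0.0495) its log2 fold change missed the threshold of edgeR's test (adjusted p = 0.357). DESeq2 called it lower (log2 fold change -0.17, adjusted p = 0.0302), the 1 call among these lists by either tool, and in the 17 remaining alternatives its adjusted p was 0.313 to 0.999. The next smallest p in that list was of ceh-18, a gonadal sheath factor, at 0.18 (SE 0.114).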

How the data were processed

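The data were poly(A) RNA-seq libraries of whole worms, 4 of the atf-6 strain and 4 of wild type, made with a stranded kit and sequenced over 75 cycles, per the labels' protocols. Per the submitters' processing notes, the genome build was WBcel235 and the tools were STAR 2.5.3a, Salmon 0.9.1 and DESeq2 1.19.51, without their roles. The gene table, as deposited by the authors, holds estimated counts in whole numbers, not normalized for depth. Per the file headers, the deposited transcript files hold estimated counts and TPM, scaled for length and depth. The 8 sample columns of a second, normalized table were not used.

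Groups and replicate numbers come from the sample titles. The 44 genes and all other lists were chosen with earlier results of these data known. Counts went into edgeR 4.0.16 under R 4.3.3 (filterByExpr, TMM, robust quasi-likelihood F-test, two-sided, Benjamini-Hochberg over 12375 genes, threshold 0.05). Fold changes are atf-6 over wild type, and the SE is the log2 fold change divided by the root of F. Errors are SDs over libraries. TPM were summed per gene over transcripts matched by locus name (261 of 58105 unmatched). TPM ratios were compared by exact permutation tests. Alternatives included RLE and upper-quartile scaling, other count filters, DESeq2 1.42.0, limma-voom 3.58.1, a replicate block, plain read sums and leaving out libraries, with 1 pair of libraries left out chosen after seeing the data.

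Values by library are given for the 4 genes with the smallest p and the 3 with the highest TPM in each class, for 9 pairs of related genes and for the 3 genes of neither class. Others were singled out after their values were seen: perm-4, chs-1 and the transcripts of cpg-1, nos-3, gld-3 and mex-1. The same holds for the intestine, muscle, hypodermis, neuron, and sheath and spermatheca markers named singly. Of the other lists, the 2 genes with the smallest p are named, and csr-1 was added after its values were seen. The fit was tested on simulated data. Every pair of libraries differed beyond sampling noise (chi-square over its degrees of freedom at least 3.76). Libraries with equal replicate numbers showed no sign of being matched, a check that cannot exclude pairing. No sequences are shown, because no sequence table was used here.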

Additional observations from a re-analysis of the deposited data

Results flagged for a closer look

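Within a strain, 6 of 94 sets of 4 libraries had 1 library far from the others, where chance flags about 1 in 20. The count is near that rate, and the sets share the same libraries, so they are not independent. All 6 were atf-6 replicate 1 or wild-type replicate 3. In atf-6 replicate 1, gld-2, the poly(A) polymerase gene, was high at 272.8 CPM (next library 255.6 CPM), and puf-8, a PUF repressor gene of germline stem cells, was low at 96.8 CPM (next library 107.7 CPM). In wild-type replicate 3, puf-8 was low as well, at 98.2 CPM (next library 112.6 CPM). High there were mex-3 at 542.99 CPM (next library 448.9 CPM), nos-3 at 259.8 CPM (next library 225.5 CPM) and glh-4 at 219.1 CPM (next library 190.6 CPM).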

How the results depend on the processing

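In all 18 alternatives 0 of the 44 genes were called, the lowest adjusted p being 0.322 (egg-2, DESeq2), and both class medians stayed below 0, at -0.13 to -0.02 for the eggshell class and -0.11 to -0.03 for the RNA-binding class. Over all genes the 101 calls became 187 with DESeq2, 39 with plain read sums, and 16 to 107 when 1 library was left out. The replicate block gave 4 calls over all genes and 0 among the 44. Equal numbers showed no sign of marking matched samples, without excluding it (correlations of -0.469, -0.058, -0.475 and 0.0831, and 1 of 4 wild-type libraries best matched by its own number). Among the other lists DESeq2 gave 1 call, wee-1.3, where edgeR gave 0. Over all genes the median was 0.00 with TMM, -0.01 with RLE and 0.03 with upper-quartile scaling.

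Log2 fold changes turned in sign for some genes, none of them called, and the cause was not tested. Without atf-6 replicate 3 and wild-type replicate 3, 12 of the 44 turned from below to above 0, the highest reaching 0.0971; among them were 0.0364 for car-1, 0.0552 for cpg-2, 0.0465 for glh-1, 0.0461 for perm-2, 0.000700 for pgl-1 and 0.0313 for pgl-3. Without atf-6 replicate 1 and wild-type replicate 3, glh-1 was at 0.00309. cpg-1 was at -0.0328 with plain read sums and -0.00793 with DESeq2. With 1 library left out, cpg-1 ran from -0.0455 to 0.0674, glh-1 from -0.0624 to 0.0185 and glp-1 from -0.0672 to 0.00478.

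With 4 libraries per strain the 95% intervals reach 0.779-fold and 1.18-fold at their outermost. The median coefficient of variation over the 44 genes was 7.19% in atf-6 and 6.58% in wild type, and the lowest count behind a value was 1085.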
